A study of Mus musculus with 15 samples.

Results

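The 2 clones of an ERK-inducible mouse line diverged in gene expression between 2 h and 4 h of induction, and the divergence is described here gene by gene. The members are 8 libraries of 15 in the series: 2 of each clone (clone 4 and clone 8) at 2h and 2 of each at 4h. The contrast asked, for every gene of the count table, whether the change from 2h to 4h in clone 8 differed from the change in clone 4, and it is called the interaction below. A negative interaction means that the change was lower in clone 8, either because the gene fell further or because it rose less.

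All libraries came from CRAFR26 mouse embryonic stem cells, which carry a c-RAF kinase construct that is switched on by 4-hydroxytamoxifen (4OHT). The cells went through 2 passages as RSCs and were then differentiated for 48 h into epiblast-like cells (EpiLCs), a culture model of the early post-implantation epiblast, in N2B27 with bFGF (12 ng/ml), Activin A (20 ng/ml) and XAV939 (1 µM). Every group, 0h included, had the FGF receptor inhibitor PD17 (PD173074, 250 nM) for 2 h, and 4OHT was given at 250 nM for 2 h (2h), for 4 h (4h) or for 4 h with a further 2 h in a MEK inhibitor (rev). The 0h (1 library of clone 4 and 2 of clone 8) and rev groups (2 of each clone) entered the model and are quoted for levels only or for the clone difference in rev. The labels name the clones as biological clones and number 2 replicates in each. Nothing in them says that these came from separate cultures, so p-values measure the spread between these libraries, which may be technical, and a clone difference is a difference between 1 clone and 1 other.

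ERK is the last kinase of the RAF, MEK and ERK cascade. Once active it phosphorylates ETS and SRF cofactors, and immediate early genes such as Fos, Egr1 and Ier2 are transcribed without new protein synthesis. Their products drive delayed genes, and some of both classes (the dual-specificity phosphatases and the Sprouty proteins) encode inhibitors that shorten the signal. In pluripotent cells ERK signalling is known for driving exit from the naive state, and its inhibition sustains Nanog, Esrrb and other naive factors.

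The 8 libraries held 1552022 to 12752651 counts, and the 4h libraries were the shallowest. At that time clone 4 totalled 1552022 and 6658950 and clone 8 totalled 6209289 and 3492073, so depth did not separate the clones at 4h. Mitochondrial genes took 12.4% and 7.93% of the counts in clone 4 at 4h and 7.21% and 10.1% in clone 8, against 2.78% to 6.98% at 2h. The gene with the most counts over all 15 libraries held 18.6% and 36.9% in clone 4 at 4h and 33.2% and 31.6% in clone 8. At 2h it held 33.9% and 33.8% in clone 4 and 29.2% and 12.3% in clone 8. With mitochondrial genes and the top 20 set aside, 523950 to 1453556 counts remained at 4h and 3003731 to 6213794 at 2h. A count of 3 was worth 0.678 to 1.78 CPM at 4h and 0.162 to 0.342 CPM at 2h, which limits what can be said of genes that are low at 4h. CPM here are counts scaled to library size (TMM), so levels are compared within a gene and not between genes of different length. Esr1, the oestrogen receptor, was lower in clone 8 at 2h (18.6 and 16.2 CPM in clone 4, 10.3 and 9.55 in clone 8, log2 difference -0.81, SE 0.17, adjusted p = 0.00548) and at 4h (8.89 and 13.5 against 4.75 and 6.32, log2 difference -1.14, SE 0.29, adjusted p = 0.0107). Its part in the results below was not tested.

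From 2h to 4h a set of ERK-responsive genes fell further in clone 8, or rose in clone 4 and not in clone 8, while Nanog and Esrrb rose further in clone 8. The lowered genes included Egr3 and Jun (immediate early transcription factors), Dusp4, Dusp5 and Dusp6 (phosphatases that act on MAP kinases), Myc, Phlda1, Vgf, Fosl2 and Hmga2. The raised genes included Nanog, Esrrb, Fgf4 and the receptor gene Epha2. Other ERK targets, Spry4, Spry2 and Etv5 among them, did not pass the test.

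Of 14999 tested genes, 313 (2.09%) passed in the interaction (edgeR quasi-likelihood F test, Benjamini-Hochberg adjusted p under 0.05), 200 lower (1.33%) and 113 higher (0.753%) in clone 8. The change itself was called for 3142 genes in clone 4 (20.9%), 1565 up and 1577 down, and for 3511 in clone 8 (23.4%), 1845 up and 1666 down. With total count scaling the split was 293 up and 529 down in clone 4 and 267 up and 4354 down in clone 8. These comparisons share their libraries with the interaction, so the following split only describes it. Of the 200 lowered genes, 94 rose in clone 4 and were not called in clone 8, 40 rose in clone 4 and fell in clone 8, 43 fell in clone 8 and were not called in clone 4, 14 fell in both and 9 rose in both. Of the 113 raised genes, 55 rose in clone 8 and were not called in clone 4, 30 fell in clone 4 and were not called in clone 8, 13 rose in both, 8 fell in both and 7 fell in clone 4 and rose in clone 8. The count rested on single 4h libraries: it was 131 without clone 4 replicate 2, 120 without clone 8 replicate 1 and 175 without clone 8 replicate 2. With total count scaling, which moved the median interaction of all genes from 0.02 to -0.50, 118 genes were called, all of them lower, and 26 of the 49 called genes named below lost their call. Thinning every library to the smallest total left 77 calls, and 26 of the 41 named genes still tested lost theirs. Dusp5, Egr3, Jun, Krt18, Myc, Ppl and Vgf were called in every fit that was run. Ubash3b was called in every fit that gave it an adjusted p. Besides the 8 that left out 1 library, these were 11 fits, against 12 for the other genes.

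**Figure D1:**
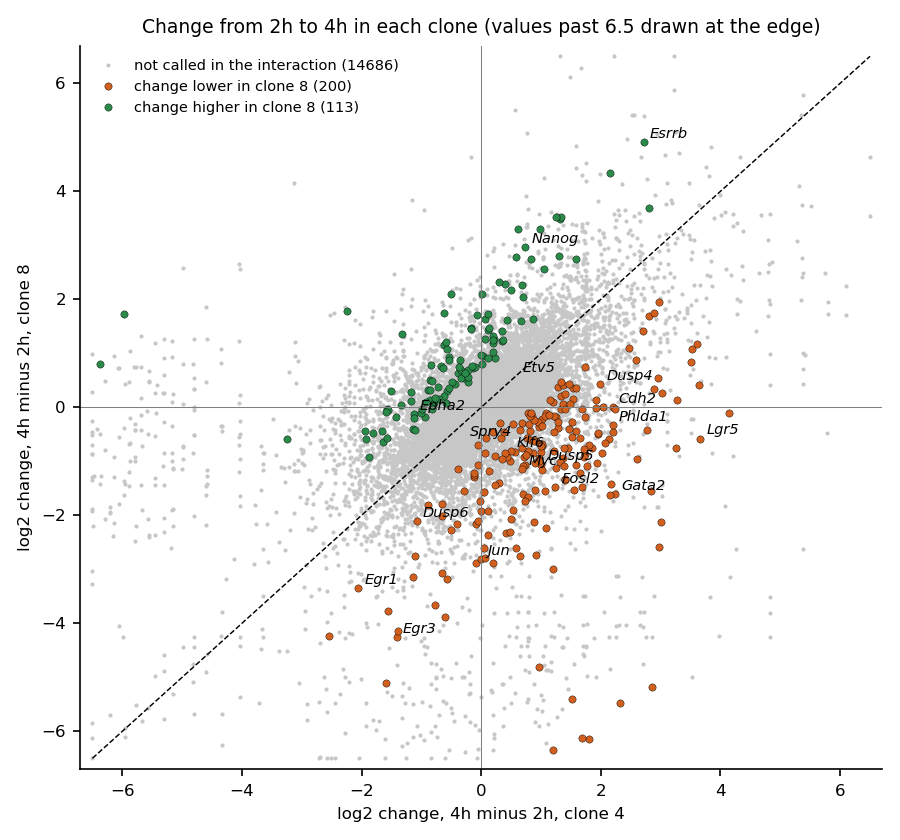
Each point is a tested gene, with its log2 change from 2h to 4h in clone 4 on the x axis and in clone 8 on the y axis, both with 2 libraries at each time. Filled points are the 313 genes called in the interaction, and the dashed line marks equal changes: the 200 lowered genes lie below it, mostly right of 0, and the 113 raised genes above it.

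The 10 genes of the ERK pathway output list divided. Phlda1, Dusp4 and Dusp6 were lower in the interaction, Epha2 was higher, and 6 did not pass. The median interaction of the list was -0.25, against 0.02 over all tested genes, and it was -0.17 without 4h clone 4 replicate 2. With total count scaling it was -0.78, against -0.50 over all genes. Phlda1, which encodes a pleckstrin homology-like protein, had 5.13 and 5.86 CPM in clone 4 and 2.98 and 2.10 in clone 8 at 2h, and 19.5 and 29.2 against 2.26 and 1.49 at 4h. Both clone 4 libraries had thus left their 2h range upward, while those of clone 8 overlapped theirs. Its interaction was -2.53 (SE 0.45, adjusted p = 0.00169). Dusp4, a nuclear phosphatase gene, had 22.4 and 21.2 CPM in clone 4 and 17.0 and 21.0 in clone 8 at 2h, and 94.2 and 80.9 against 27.8 and 23.4 at 4h. At 2h the clones were close (log2 difference -0.18, adjusted p = 0.584), and at 4h clone 8 lay 3.42-fold below clone 4. Its interaction was -1.56 (SE 0.22, adjusted p = 0.000182).

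Epha2, an ephrin receptor gene, went the other way within the same list. It had 211 and 188 CPM in clone 4 and 128 and 147 in clone 8 at 2h, and 90.0 and 91.6 against 129 and 123 at 4h. The order of the clones turned: clone 4 fell, and the change in clone 8 was not called (-0.12, adjusted p = 0.508). The interaction was 1.01 (SE 0.17, adjusted p = 0.00131), and it kept its sign but not its call with total count scaling (0.39, adjusted p = 0.811). Among the 6 members that did not pass, interactions ran from -0.31 to 1.36. Spry4, a Sprouty inhibitor of receptor tyrosine kinase signalling, had 118 and 125 CPM in clone 4 and 62.0 and 61.3 in clone 8 at 2h, and 91.2 and 104 against 38.2 and 43.1 at 4h. It was therefore lower in clone 8 at both times (log2 difference -0.98 and -1.29, adjusted p = 6.58e-06 and 4.11e-07), with an interaction of -0.31 (95% interval -0.68 to 0.05, adjusted p = 0.506). For the ETS factor gene Etv5 the interval was -0.35 to 0.33 around -0.01, for Spry2 -0.62 to 0.22 around -0.20 and for Etv4 -0.84 to 0.22 around -0.31. All libraries of both clones held more Etv5 at 4h (121 and 124 CPM, 140 and 130) than at 2h (80.8 and 82.1, 94.0 and 86.6).

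**Figure D2:**
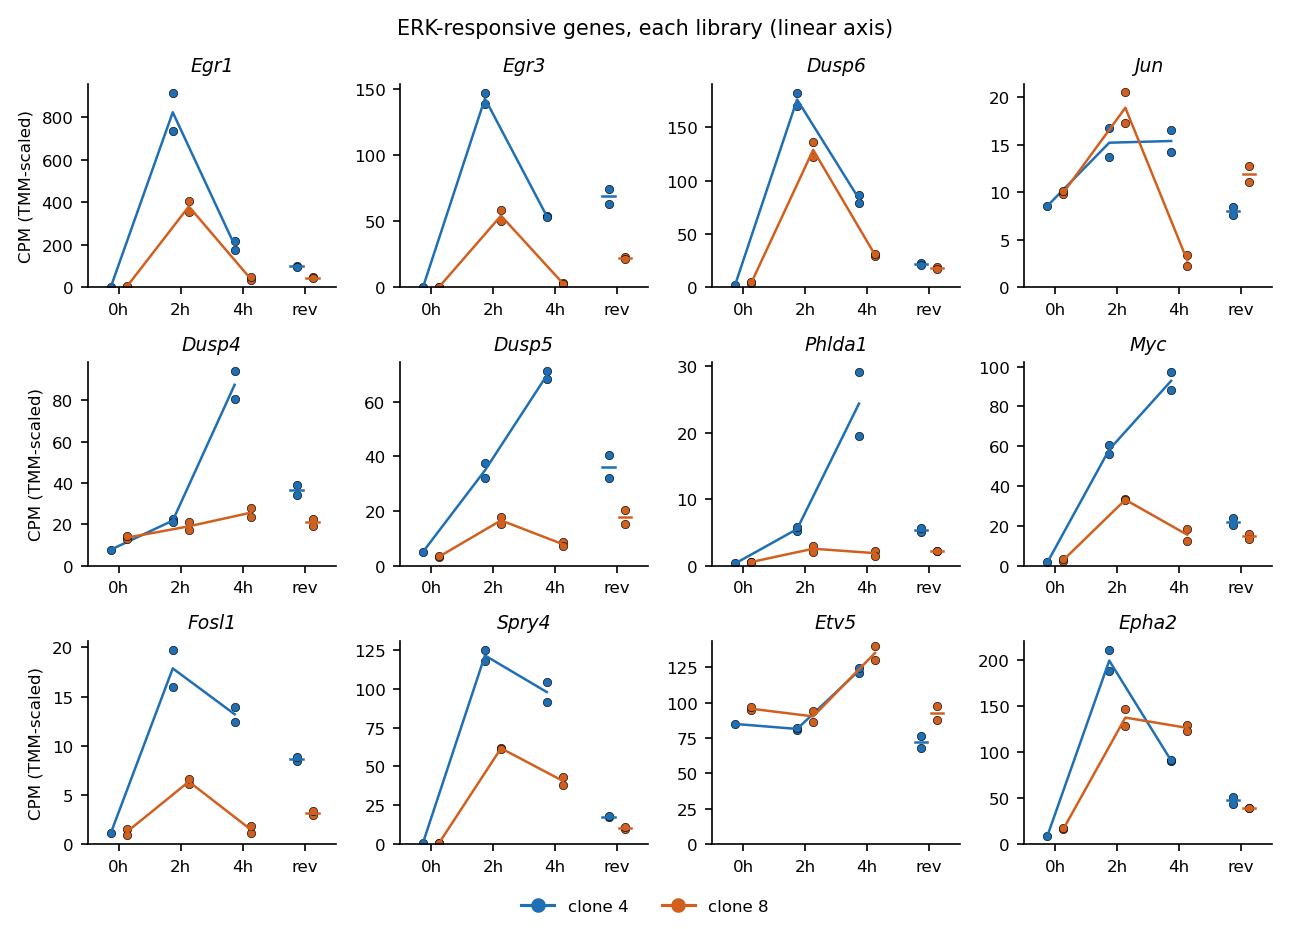
CPM of 12 ERK-responsive genes in each of the 15 libraries (points) at 0h, 2h, 4h and in rev, with lines through the mean of each clone up to 4h and a bar at the mean in rev. For Dusp4, Dusp5, Phlda1 and Myc the 4h libraries of clone 4 lie above the 2h ones. Those of clone 8 lie below their own 2h libraries for Dusp5 and Myc, overlap them for Phlda1 and are above them by less for Dusp4. Etv5 rises in both clones, and Epha2 ends lower in clone 4 than in clone 8.

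The feedback inhibitors that passed were phosphatase genes, and no Sprouty or Spred gene passed. Of 16 tested members (Spry3 was not tested), 3 were lower, Dusp4, Dusp5 and Dusp6, and none was higher. The median was -0.44, or -0.34 with 1 member at its bound, and it was -0.83 without 4h clone 8 replicate 1. Under total count scaling it was -0.98, with 16 of 16 negative. That scaling lowered the median over all genes as well. In the ribosome biogenesis list 16 of 16 were then negative too, with a median of -0.61. Dusp5, a nuclear ERK phosphatase gene (ENSMUSG00000034765, GRCm38, chr19:53529109-53542431, plus strand, GENCODE M21), had 37.5 and 32.1 CPM in clone 4 and 15.2 and 17.9 in clone 8 at 2h, and 68.1 and 71.1 against 8.59 and 7.06 at 4h. It rose in clone 4 (log2 change 1.01, adjusted p = 7.99e-05) and fell in clone 8 (-1.06, adjusted p = 0.00108), with an interaction of -2.07 (SE 0.27, adjusted p = 7.33e-05). The clones were apart at both times, and clone 8 was 8.89-fold below clone 4 at 4h. Dusp6, the cytoplasmic ERK phosphatase gene (ENSMUSG00000019960, chr10:99263231-99267489), had 170 and 182 CPM in clone 4 and 122 and 136 in clone 8 at 2h, and 79.4 and 86.2 against 28.9 and 31.2 at 4h. It fell in both clones, to 47.0% of the 2h mean in clone 4 and 23.4% in clone 8, and its interaction was -1.03 (SE 0.18, adjusted p = 0.00173). Of the 13 members that did not pass, 9 had a negative interaction and 4 a positive one, between -1.08 and 0.30. Spred1 was one of them, with 25.7 and 34.4 CPM in clone 4 and 37.5 and 31.6 in clone 8 at 2h and 58.6 and 60.3 against 45.4 and 49.5 at 4h (interaction -0.53, 95% interval -0.96 to -0.09, adjusted p = 0.289). Spry1, also uncalled, was at 253% of its 2h mean in clone 4 at 4h and at 119% in clone 8. Spred3 was at 186% and 112%, and Spred2 at 189% and 197%.

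Promoter sequence was looked up for the 10 ERK output, feedback and immediate early genes called in the interaction, and 5 had an entry in the RefSeq table (GRCm38.p6). The 250 bases before the start were searched on both strands for the CArG box, the ETS core CCGGAAGT, AP-1 TGANTCA, CRE TGACGTCA and the EGR motifs GCGTGGGCG and GCGGGGGCG. Dusp5 held 2 adjacent CArG boxes, which begin 82 and 72 bases before the RefSeq start, and Epha2 held 1 CRE, which begins 33 bases before its RefSeq start. Dusp6, Jun and Klf6 held no match. Over all 32851 promoters of the table a CArG box was in 1.47%, a CRE in 1.55%, the ETS core in 2.88%, AP-1 in 6.75% and the EGR motifs in 0.536% and 2.57%. The promoters with a match belong to genes of opposite interaction. They are printed 5′ to 3′ with the matches in capitals, Dusp5 as chr19:53528895-53529108 (plus strand, ending on the base before the GENCODE start of the gene, which is 37 bases before the RefSeq start) and Epha2 as chr4:141300971-141301220 (plus strand).
Dusp5: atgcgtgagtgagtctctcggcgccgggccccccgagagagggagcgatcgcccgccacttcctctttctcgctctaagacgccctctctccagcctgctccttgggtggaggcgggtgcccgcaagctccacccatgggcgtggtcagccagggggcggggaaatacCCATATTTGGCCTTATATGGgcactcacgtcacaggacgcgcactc
Epha2: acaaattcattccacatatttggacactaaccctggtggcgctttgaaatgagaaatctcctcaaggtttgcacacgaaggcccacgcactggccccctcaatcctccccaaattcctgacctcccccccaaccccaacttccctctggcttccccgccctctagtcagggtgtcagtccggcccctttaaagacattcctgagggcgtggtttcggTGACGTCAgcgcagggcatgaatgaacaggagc

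Most immediate early genes fell in both clones, and 5 of 24 had a lower change in clone 8. The 5 were Egr3, Jun, Myc, Klf6 and Egr1, all lower in the interaction, and none was higher. From 2h to 4h, 16 members fell and 3 rose in clone 4, against 10.5% and 10.4% of all tested genes. In clone 8, 17 fell, against 11.1%. The median interaction was -0.47, or -0.28 with 5 members at their bound, and it was -0.82 without 4h clone 8 replicate 1 and -0.77 after thinning. It was -1.03 with total count scaling, which lowered the median over all genes as well. Without 4h clone 4 replicate 2 the calls were 3. Egr3 (ENSMUSG00000033730, chr14:70077203-70082614), a zinc finger transcription factor gene, had 139 and 147 CPM in clone 4 and 58.4 and 49.8 in clone 8 at 2h, and 53.9 and 53.4 against 2.94 and 2.6 at 4h. The clones were apart at both times, and the gap grew from 2.64-fold to 19.4-fold. Egr3 was low in clone 8 at 4h, where 3 counts were worth 0.678 and 1.12 CPM. Its interaction was -2.84 (SE 0.30, adjusted p = 5.4e-06). Egr1, its close relative and a textbook ERK target, had 734 and 914 CPM in clone 4 and 405 and 355 in clone 8 at 2h, and 175 and 219 against 31.0 and 45.0 at 4h. It fell in both clones (log2 change -2.05 and -3.35), with an interaction of -1.30 (SE 0.24, adjusted p = 0.00266). That call was lost without the 4h libraries clone 4 replicate 2 (-1.14, adjusted p = 0.0529) or clone 8 replicate 1 (-1.02, adjusted p = 0.0806).

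Jun, Myc and Klf6 fell in clone 8, while in clone 4 Myc and Klf6 rose and the change of Jun was not called (-0.01, adjusted p = 0.984). Jun (ENSMUSG00000052684, chr4:95049034-95052222, minus strand), a component of AP-1, had 16.8 and 13.7 CPM in clone 4 and 17.3 and 20.5 in clone 8 at 2h, and 16.6 and 14.2 against 2.26 and 3.35 at 4h. Before the fall in clone 8 the clones did not differ past the threshold (log2 difference at 2h 0.33, adjusted p = 0.313). The interaction was -2.81 (SE 0.36, adjusted p = 4.73e-05). Myc (chr15:61985391-61990374), a growth regulator, had 60.8 and 55.9 CPM in clone 4 and 33.3 and 33.0 in clone 8 at 2h, and 88.3 and 97.5 against 12.4 and 18.6 at 4h. It rose in clone 4 and fell in clone 8 (log2 change 0.68 and -1.14, adjusted p = 0.0015 and 5.04e-05), with an interaction of -1.82 (SE 0.23, adjusted p = 4.73e-05). Klf6, a Krüppel-like factor gene, had 38.3 and 39.1 CPM in clone 4 and 41.4 and 35.0 in clone 8 at 2h, and 45.6 and 60.5 against 20.6 and 23.1 at 4h, with an interaction of -1.31 (SE 0.24, adjusted p = 0.00201). Its call was lost without 4h clone 4 replicate 2 (-1.09, adjusted p = 0.0693).

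Of the 19 immediate early genes that did not pass, 10 had a negative and 9 a positive interaction. Fos, the partner of Jun, had 40.3 and 48.7 CPM in clone 4 and 22.4 and 23.1 in clone 8 at 2h, and 4.74 and 4.66 against 0.904 and 1.12 at 4h. The clones did not overlap at either time, and the interaction was -1.27 (95% interval -2.47 to -0.07, adjusted p = 0.378). Junb had 285 and 209 CPM in clone 4 and 52.8 and 90.2 in clone 8 at 2h, and 37.3 and 38.2 against 4.30 and 2.23 at 4h, with an interaction of -1.66 (95% interval -2.83 to -0.49, adjusted p = 0.181). DESeq2 called it (-1.69, adjusted p = 0.0188), as did 3 other fits. Among the named genes that edgeR called, DESeq2 lost 7 of the 47 it gave an adjusted p (Esrrb, Fosl1, Cdk1, Il15ra, Acss1, Rfx2 and Nfix) and limma voom lost 9 of 49.

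The Egr corepressor genes Nab1 and Nab2, whose proteins bind EGR factors and limit them, were both lower in the interaction (2 of 2). Nab1 had 32.5 and 36.7 CPM in clone 4 and 20.9 and 16.4 in clone 8 at 2h, and 40.9 and 53.4 against 8.14 and 10.8 at 4h. It rose in clone 4 and fell in clone 8, with an interaction of -1.48 (SE 0.27, adjusted p = 0.00219). Nab2 had 113 and 80.8 CPM in clone 4 and 33.2 and 42.1 in clone 8 at 2h, and 72.9 and 83.8 against 12.0 and 14.1 at 4h, with an interaction of -1.26 (SE 0.27, adjusted p = 0.0119). Both calls were lost without the 4h library clone 4 replicate 2 (adjusted p = 0.0557 for Nab1 and 0.133 for Nab2) or clone 8 replicate 1 (0.0872 and 0.206).

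Delayed early and secondary ERK genes, those that textbooks place after the immediate early wave, rose more often than they fell in clone 4 and fell more often than they rose in clone 8. Of 28 tested members of 30, 5 were lower in the interaction (Fosl2, Hmga2, Vgf, Fosl1 and Rrad) and none was higher, and 21 of 28 had a negative value. The median was -0.96, or -0.68 with 8 members at their bound. It was -1.51 with total count scaling, which lowered the median over all genes as well. The calls were 8 without 2h clone 8 replicate 1, 3 without 4h clone 4 replicate 2, and 2 and 3 without 4h clone 8 replicate 1 and 2. In clone 4, 12 members rose and 5 fell, against 10.4% and 10.5% of all tested genes. In clone 8, 3 rose and 9 fell, against 12.3% and 11.1%. Vgf, which encodes a secreted neuropeptide precursor, had 21.6 and 14.0 CPM in clone 4 and 9.46 and 12.1 in clone 8 at 2h, and 73.5 and 64.7 against 8.14 and 7.44 at 4h. The clones were not called apart at 2h and were 8.87-fold apart at 4h, with an interaction of -2.43 (SE 0.34, adjusted p = 0.000186). Hmga2, a chromatin architectural protein gene, had 5.02 and 6.04 CPM in clone 4 and 3.24 and 2.37 in clone 8 at 2h, and 20.7 and 26.7 against 1.81 and 1.86 at 4h (interaction -2.71, SE 0.47, adjusted p = 0.00149).

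Fosl2 and Fosl1 encode FOS-related AP-1 components. Fosl2 had 10.4 and 8.79 CPM in clone 4 and 3.15 and 4.53 in clone 8 at 2h, and 23.7 and 21.8 against 1.36 and 1.49 at 4h. It rose in clone 4 and fell in clone 8, and its interaction was -2.71 (SE 0.50, adjusted p = 0.00223). The call was lost without 4h clone 8 replicate 1 (-2.63, adjusted p = 0.085). Fosl1 had 19.7 and 16.0 CPM in clone 4 and 6.13 and 6.58 in clone 8 at 2h, and 12.4 and 14.0 against 1.13 and 1.86 at 4h (interaction -1.76, SE 0.44, adjusted p = 0.0356). The clones were apart at both times, and 6 of 8 fits that left out 1 library lost the call, with adjusted p up to 0.4 without 4h clone 8 replicate 1. Rrad, a small GTPase gene, had 65.4 and 54.0 CPM in clone 4 and 16.1 and 23.2 in clone 8 at 2h, and 26.7 and 28.2 against 2.94 and 2.97 at 4h (interaction -1.64, SE 0.37, adjusted p = 0.0156). Its call was lost without the 4h libraries clone 4 replicate 2 (-1.62, adjusted p = 0.115), clone 8 replicate 1 (-1.63, adjusted p = 0.213) or clone 8 replicate 2 (-1.68, adjusted p = 0.086).

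ETS factor genes and the genes of the cascade held no call in the interaction. By edgeR 0 of 10 ETS factor genes were called (3 at an unadjusted p under 0.05, 0 by DESeq2 and 0 by limma voom), with a median of -0.19, which was -0.68 with total count scaling, 0.04 after thinning and -0.0037 without 2h clone 8 replicate 1. The cascade list has 16 members, of which 1, Esr1, is not a cascade gene. In it 0 were called (1 at an unadjusted p under 0.05, 0 by either other tool), and the interactions ran from -0.33, the value of Esr1, to 0.70 with a median of 0.08, which turned to -0.48 with total count scaling and was 0.21 and -0.0075 without 2h clone 8 replicate 1 and 2. Total count scaling lowered the median over all genes as well. The clones themselves differed for 1 ETS gene in each direction at 2h and for none at 4h. In the cascade list 2 members were lower in clone 8 at 2h, of which 1 was Esr1. At 4h the only one was Esr1, so no cascade gene was called there.

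**Figure D3:**
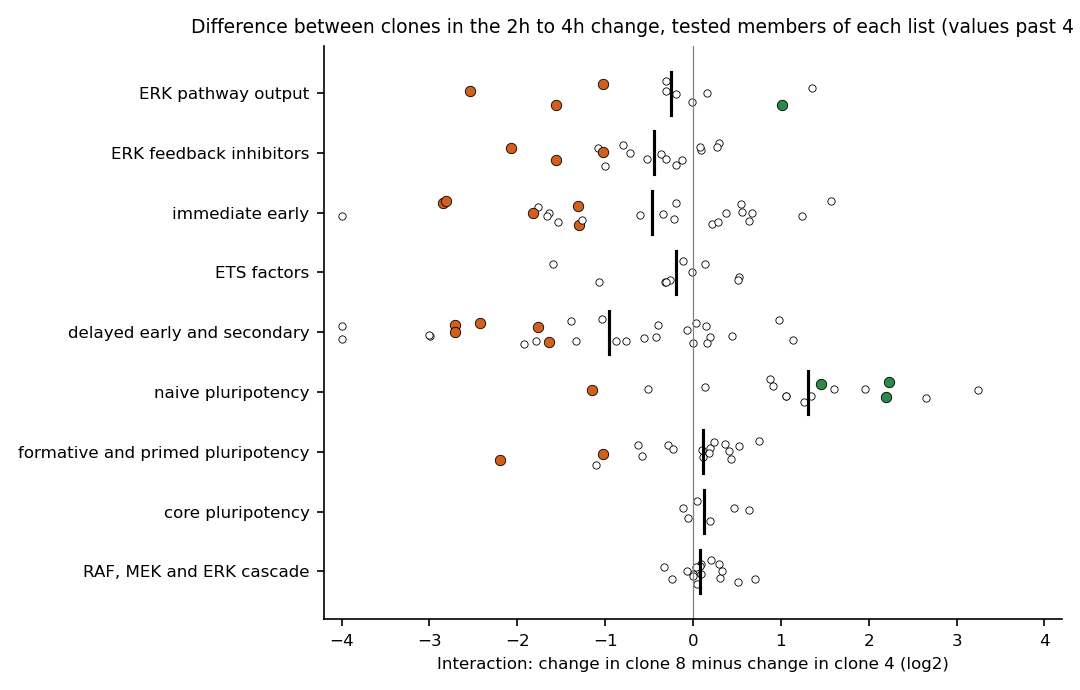
Interaction (log2) of every tested member of 9 gene lists, one point a gene, filled where called (orange lower, green higher in clone 8), with the median of each list as a black bar. The delayed early list has its median at -0.96 and the naive list at 1.31, while the cascade and core pluripotency genes lie around 0.

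Most naive pluripotency genes rose from 2h to 4h in both clones, and Nanog and Esrrb rose further in clone 8. Of 16 members, 9 rose and 1 fell in clone 4, against 10.4% and 10.5% of all tested genes. In clone 8, 13 rose and 0 fell, against 12.3% and 11.1%. In the interaction 3 were higher (Nanog, Esrrb and Fgf4), 1 was lower (Klf5), 14 had a positive value and the median was 1.31. With total count scaling 13 of 16 were positive, the median was 0.77 and 0 were called higher. Nanog (ENSMUSG00000012396, chr6:122707489-122714633), a homeodomain factor of the naive network, had 10.7 and 10.1 CPM in clone 4 and 12.0 and 9.49 in clone 8 at 2h, and 13.6 and 19.4 against 87.7 and 78.5 at 4h. At 2h the clones overlapped, and at 4h clone 8 was 5.04-fold above clone 4. Its interaction was 2.23 (SE 0.25, adjusted p = 8.86e-06).

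Esrrb, an orphan nuclear receptor gene, had 1.60 and 1.42 CPM in clone 4 and 2.28 and 2.53 in clone 8 at 2h, and 14.8 and 7.35 against 72.4 and 75.1 at 4h. It rose in both clones, with an interaction of 2.20 (SE 0.55, adjusted p = 0.0344) that 5 of 8 fits with 1 library left out no longer called (adjusted p up to 0.305, without 4h clone 4 replicate 2, where the value was 1.59). It was not called by DESeq2 (2.09, adjusted p = 0.169) or limma voom (2.30, adjusted p = 0.053). Fgf4, the main autocrine FGF of pluripotent cells, had 90.0 and 101 CPM in clone 4 and 73.6 and 77.2 in clone 8 at 2h, and 38.5 and 44.8 against 94.3 and 89.6 at 4h. It fell in clone 4 alone (log2 change -1.17, adjusted p = 1.12e-06, against 0.29, adjusted p = 0.0915, in clone 8), so the order of the clones turned, with an interaction of 1.46 (SE 0.18, adjusted p = 4.73e-05). Klf5 had 10.3 and 11.1 CPM in clone 4 and 8.85 and 9.76 in clone 8 at 2h, and 71.1 and 85.3 against 27.1 and 36.4 at 4h (interaction -1.15, SE 0.27, adjusted p = 0.0243). It rose in both clones and less in clone 8, and the call was lost without the 4h libraries clone 4 replicate 2 (-1.02, adjusted p = 0.192) or clone 8 replicate 1 (-0.92, adjusted p = 0.227).

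Formative and primed genes gave 2 lower calls of 17 and a median of 0.11, and 1 of the calls is described. The median turned negative with total count scaling (-0.50), after thinning (-0.12) and without 4h clone 4 replicate 2 (-0.17). Total count scaling lowered the median over all genes as well. Cdh2, the N-cadherin gene, had 4.90 and 6.66 CPM in clone 4 and 10.8 and 9.06 in clone 8 at 2h, and 24.3 and 28.4 against 9.95 and 9.67 at 4h. Clone 8 started above clone 4 and ended below it, where its own change was not called (adjusted p = 0.998), and the interaction was -2.20 (SE 0.32, adjusted p = 0.000248). Among 6 core pluripotency genes edgeR called 0 (2 at an unadjusted p under 0.05, 0 by DESeq2 and 0 by limma voom).

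**Figure D4:**
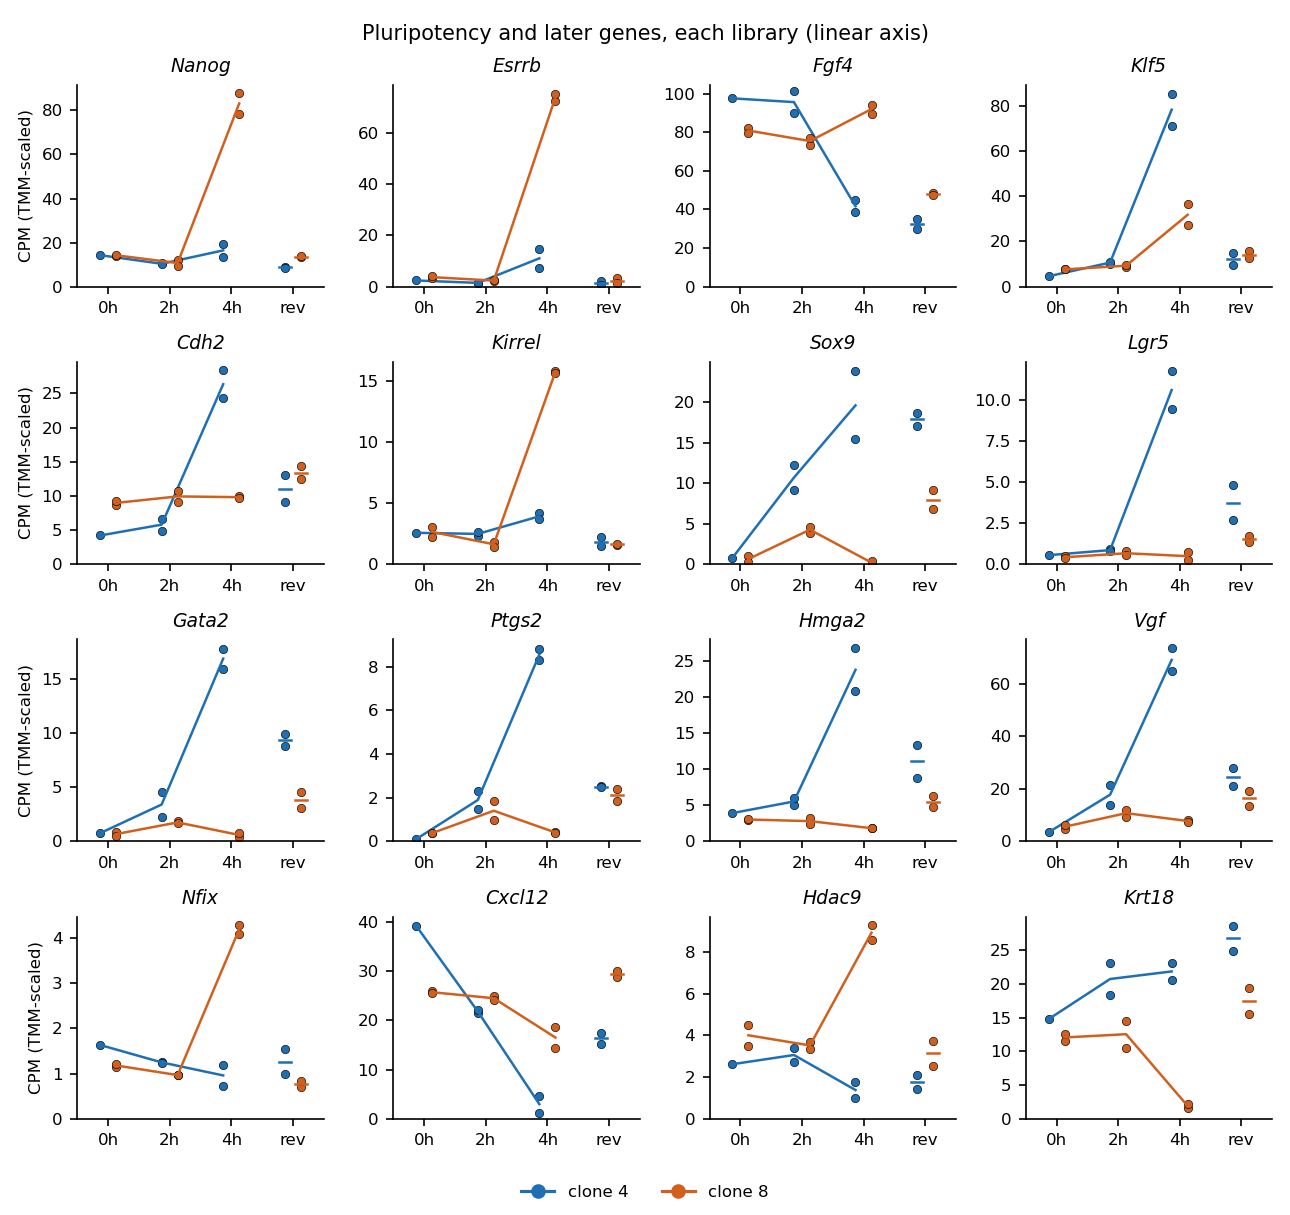
CPM of 16 genes in each of the 15 libraries, drawn as for the ERK-responsive genes: points are libraries, lines join clone means up to 4h, and bars are means in rev. Nanog and Esrrb rise far more in clone 8, and Fgf4 falls below clone 8 in clone 4. Cxcl12 falls in both clones and further in clone 4, and Sox9, Lgr5, Gata2 and Ptgs2 rise in clone 4 alone.

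The 12 most negative interactions among called genes with a mean of at least 1 CPM, a symbol and clones that did not overlap at 4h were those of Tmem37, Tex16, Il15ra, Sox9, Zfpm2, Lgr5, Ubash3b, Samd4, Rgs20, Gata2, Ptgs2 and Ppl. All but Ubash3b and Ppl had at most 3 counts in each clone 8 library at 4h, so their fitted values depend on the prior count. Sox9, a SOX family transcription factor gene, had 12.2 and 9.14 CPM in clone 4 and 3.86 and 4.64 in clone 8 at 2h. At 4h it had 15.4 and 23.8 CPM in clone 4 and 0 and 0.372 in clone 8, which is 26 and 97 counts against 0 and 1 (fitted interaction -5.77, SE 0.84, adjusted p = 0.000227). At 0h it had 0.763 CPM in clone 4 and 1.01 and 0.243 in clone 8, so clone 8 was at 4h within or below the levels before induction. Lgr5, an R-spondin receptor gene and Wnt target, had 0.912 and 0.799 CPM in clone 4 and 0.789 and 0.539 in clone 8 at 2h, and 9.48 and 11.8 against 0.226 and 0.744 at 4h. It rose in clone 4 alone, with 16 and 48 counts against 1 and 2 at 4h (fitted interaction -4.24, SE 0.85, adjusted p = 0.00554).

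Gata2, a GATA factor gene, had 2.28 and 4.53 CPM in clone 4 and 1.84 and 1.67 in clone 8 at 2h, and 17.8 and 15.9 against 0.452 and 0.744 at 4h. Ptgs2, the inducible cyclooxygenase gene, had 1.48 and 2.31 CPM in clone 4 and 1.84 and 0.971 in clone 8 at 2h, and 8.29 and 8.82 against 0.452 and 0.372 at 4h. In both, the 4h libraries of clone 4 were above every other library of the 8 and those of clone 8 below every one. The calls of Lgr5, Gata2 and Ptgs2 were lost without 4h clone 8 replicate 1 (adjusted p = 0.117, 0.0576 and 0.0785). Ubash3b, a phosphatase gene that lowers tyrosine kinase signals, had 0.456 and 0.799 CPM in clone 4 and 1.75 and 1.35 in clone 8 at 2h, and 11.3 and 11.8 against 1.36 and 1.49 at 4h (interaction -4.24, SE 0.66, adjusted p = 0.000433). Ppl, the periplakin gene, had 7.87 and 5.95 CPM in clone 4 and 5.52 and 5.82 in clone 8 at 2h, and 12.4 and 13.2 against 0.904 and 0.744 at 4h (interaction -3.65, SE 0.54, adjusted p = 0.000248). Both rested on few counts in clone 8 at 4h, where 3 counts were worth 0.678 and 1.12 CPM. They were called in every fit with 1 library left out, as were Sox9 and Samd4.

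With no count at 4h in clone 8, Tmem37, Il15ra and Tex16 were at least 6.0-fold, 4.58-fold and 3.15-fold lower there than in clone 4, against the level of 3 counts a library. In clone 4 at 4h the counts were 7 and 27 for Tmem37, 6 and 19 for Il15ra, and 5 and 11 for Tex16. Their calls, with those of Zfpm2 and Rgs20, were lost in 2 to 6 of 8 fits with 1 library left out, with adjusted p up to 0.289 for Tex16, 0.271 for Il15ra and Zfpm2, 0.141 for Tmem37 and 0.119 for Rgs20. The largest p came without 4h clone 8 replicate 1, except for Rgs20, where it came without 4h clone 4 replicate 2.

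The 12 most positive interactions under the same rule were those of Chst3, Hmcn2, Hdac9, Kirrel, Cxcl12, Nfix, Acss1, Dnah8, Slfn9, Nanog, Rfx2 and Esrrb. Cxcl12, a chemokine gene, had 21.6 and 22.1 CPM in clone 4 and 25 and 24.1 in clone 8 at 2h, and 4.74 and 1.23 against 14.5 and 18.6 at 4h. It fell in both clones and further in clone 4, with an interaction of 2.65 (SE 0.39, adjusted p = 0.000276), which was 1.57 (adjusted p = 0.091) without 4h clone 4 replicate 2. Kirrel, which encodes a nephrin-like adhesion protein, had 2.28 and 2.66 CPM in clone 4 and 1.84 and 1.40 in clone 8 at 2h, and 4.15 and 3.68 against 15.8 and 15.6 at 4h. It rose in clone 8 (log2 change 3.30, adjusted p = 3.28e-09) with an interaction of 2.69 (SE 0.45, adjusted p = 0.000908). Dnah8, an axonemal dynein gene, had 3.99 and 4.62 CPM in clone 4 and 1.66 and 3.13 in clone 8 at 2h, and 8.89 and 8.33 against 20.8 and 30.1 at 4h (interaction 2.33, SE 0.40, adjusted p = 0.00131). Slfn9, a Schlafen gene, had 8.10 and 8.08 CPM in clone 4 and 2.98 and 2.91 in clone 8 at 2h, and 13 and 22.8 against 32.8 and 35.7 at 4h, so that the order of the clones turned (interaction 2.29, SE 0.31, adjusted p = 0.000112).

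Hdac9, a histone deacetylase gene, had 2.74 and 3.37 CPM in clone 4 and 3.68 and 3.34 in clone 8 at 2h, and 1.78 and 0.980 against 9.27 and 8.55 at 4h (interaction 2.69, SE 0.55, adjusted p = 0.00674). Nfix had at most 3 counts in each 4h library of clone 4, as did Hmcn2 and Chst3, and their fitted values depend on the prior count. Chst3, with no count in clone 4 at 4h, was at least 2.24-fold higher in clone 8. The call of Nfix was lost in 8 of 8 fits with 1 library left out (adjusted p up to 0.377), those of Acss1 and Rfx2 in 6 (up to 0.297 and 0.322), those of Chst3 and Hmcn2 in 4 (up to 0.304 and 0.133) and that of Hdac9 in 2 (up to 0.247). The largest p came without 4h clone 4 replicate 2 for Nfix, Rfx2, Chst3, Hmcn2 and Hdac9, and without 4h clone 8 replicate 1 for Acss1. Kirrel, Dnah8, Slfn9 and Nanog were called in all 8.

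Single genes of other pathways were called in lists with no other or 1 other call. In the p53 and stress list (18 members, 1 higher, median 0.11) Bbc3, the pro-apoptotic PUMA gene, had 15.7 and 12.6 CPM in clone 4 and 14.0 and 17.6 in clone 8 at 2h, and 5.33 and 4.41 against 17.4 and 13 at 4h (interaction 1.54, SE 0.35, adjusted p = 0.0163). In the cholesterol synthesis list (14 members, median -0.10) Insig1, which retains the sterol sensor in the endoplasmic reticulum, was higher (interaction 1.00, SE 0.19, adjusted p = 0.00293) and Hmgcs1, an early enzyme of the pathway, lower (-0.75, SE 0.17, adjusted p = 0.0193). Insig1 had 182 and 178 CPM in clone 4 and 67.9 and 84.0 in clone 8 at 2h, and 53.9 and 60.5 against 50.0 and 48.0 at 4h, so its clones were apart at 2h and close at 4h. Hmgcs1 had 345 and 415 CPM in clone 4 and 393 and 343 in clone 8 at 2h, and 270 and 306 against 167 and 166 at 4h. In the mitosis list (12 members, 1 higher, median 0.38) Cdk1 had 63.3 and 72.6 CPM in clone 4 and 75.4 and 64.6 in clone 8 at 2h, and 33.2 and 37.0 against 64.4 and 58.0 at 4h (interaction 0.75, SE 0.19, adjusted p = 0.0376). The calls of Bbc3, Hmgcs1 and Cdk1 were lost in 3, 5 and 6 of 8 fits with 1 library left out, with adjusted p up to 0.304 (Bbc3) and 0.115 (Hmgcs1) without 4h clone 4 replicate 2 and up to 0.216 (Cdk1) without 4h clone 8 replicate 1.

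Of the markers of other cell types, those of trophectoderm held the one call. They summed to 50.1 and 58.9 CPM in clone 4 and 23.7 to 31.4 in clone 8 at 2h, and to 46.8 and 47.8 against 9.50 and 11.2 at 4h. The call was that of Krt18 (1 of 7 tested, lower), which alone gave 23.1 and 20.6 CPM of the clone 4 sums at 4h. Of the 7, 5 had a negative interaction and 2 a positive one, and 4 had an arm with at most 3 counts in each library. Krt8 was at 45.9% of its 2h mean in clone 4 at 4h and at 16.3% in clone 8. Tfap2c went the other way, with 159% and 352%. The part of these markers in the other results was not tested. Krt18, a simple epithelial keratin gene, had 23.2 and 18.3 CPM in clone 4 and 10.5 and 14.6 in clone 8 at 2h, and 23.1 and 20.6 against 1.58 and 2.23 at 4h (interaction -2.84, SE 0.40, adjusted p = 0.000179). Neural markers summed to 60.5 to 93.2 CPM at 2h and 71.4 to 85.8 at 4h, primitive endoderm markers to 23.7 to 40.5 and 15.2 to 18.1, and markers of 2-cell-like cells to 1.14 to 2.28 and 8.89 to 14.7. Fibroblast markers summed to 7.90 to 10.6 CPM in clone 4 and 4.31 to 4.64 in clone 8 at 2h, and to 4.90 to 5.92 against 0.372 to 2.49 at 4h, with Lum at 0 in all 8. In the primitive endoderm, neural, fibroblast and 2-cell-like lists edgeR called 0 of 5, 0 of 5, 0 of 4 and 0 of 5 tested members (1, 1, 0 and 0 at an unadjusted p under 0.05), and DESeq2 and limma voom called 0 in each.

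Glycolysis, ribosome biogenesis, mesendoderm, nuclear RNA and mRNA decay genes held no call in the interaction. By edgeR the counts were 0 of 16, 0 of 16, 0 of 8, 0 of 7 and 0 of 3 (1, 0, 1, 2 and 0 at an unadjusted p under 0.05), with 0 in each by DESeq2 and by limma voom. Their medians were 0.15 for glycolysis, -0.003 for ribosome biogenesis, -0.27 for mesendoderm (0.29 with 4 members at their bound, a change of sign), 0.52 for nuclear RNA and 0.01 for mRNA decay.

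For most of the lowered genes the gap between the clones was at 4h and small at 2h. At 2h, 769 genes differed between the clones (5.13%, 392 or 2.61% higher and 377 or 2.51% lower in clone 8), at 4h 1405 (9.37%, 739 or 4.93% higher and 666 or 4.44% lower) and in rev 716 (4.77%, 406 higher and 310 lower). With total count scaling clone 8 had 104 genes higher and 15 lower at 2h. At 4h these were 80 higher and 305 lower, and in rev 1 higher and 35 lower. The 2h and 4h comparisons share their libraries with the interaction, which is the 4h difference minus the 2h one, so their split describes it. Of the 200 lowered genes 190 were lower in clone 8 at 4h, 55 were already lower at 2h and 12 were higher at 2h. The median difference over them was -0.30 at 2h and -2.24 at 4h. Both 4h libraries of clone 8 lay on one side of both of clone 4 for 49.5% of tested genes, above for 27% and below for 22.5%, and for 199 of the lowered and 111 of the raised genes. Of the 113 raised genes 103 were higher in clone 8 at 4h, 12 were higher at 2h and 11 lower, with medians of 0.01 and 1.24. At 4h the count was 647 without clone 4 replicate 2, 724 without clone 8 replicate 1 and 904 without clone 8 replicate 2, and at 2h it was 488 without clone 4 replicate 1.

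Most of the lowered genes of the ERK, corepressor and delayed lists belonged to the smaller class that was already lower in clone 8 at 2h. At that time 4 of 10 ERK output, 5 of 16 feedback and 12 of 24 immediate early genes were called lower. So were 2 of 2 corepressor and 15 of 28 delayed genes, against 2.51% of all tested genes. The first 3 of these lists also held 1 gene each called higher. The difference at 2h was -1.41 for Egr3 (adjusted p = 1.01e-06), -1.36 for Nab2 (6.94e-06), -1.58 for Rrad (1.67e-06), -1.48 for Fosl1 (1.51e-05), -1.12 for Egr1 (7.01e-05) and -1.06 for Dusp5 (0.000118). It was -0.82 for Myc, -0.91 for Nab1, -1.28 for Fosl2, -1.15 for Phlda1, -0.45 for Dusp6 and -1.02 for Hmga2, all with adjusted p under 0.05. Dusp4, Jun, Klf6 and Vgf were not called at 2h (-0.18, 0.33, -0.02 and -0.69, adjusted p = 0.584, 0.313, 0.971 and 0.0538).

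The rev libraries, which had the MEK inhibitor and took no part in the interaction contrast, showed smaller median clone differences than 4h and larger ones than 2h. The 4h and the 2h values both selected the genes, in opposite directions, so neither of their medians is free of that selection. Of the 200 lowered genes 61 were also lower in clone 8 in rev (of 310 called lower in rev, 2.07% of all tested) and 9 were higher, and the median difference was -0.43. Of the 113 raised genes 25 were higher in rev (of 406, 2.71% of all tested) and 7 were lower, with a median of 0.20. Egr3 stayed apart in rev, with 63.1 and 74.5 CPM in clone 4 and 23.0 and 21.5 in clone 8 (log2 difference -1.63, SE 0.14, adjusted p = 5.36e-07). In clone 8 both rev values were above those of 4h. Jun had 8.42 and 7.63 CPM in clone 4 and 12.8 and 11.1 in clone 8, where the difference was not called (0.56, adjusted p = 0.0985). Nanog was near its 2h level in rev in both clones, with 8.98 and 8.66 CPM in clone 4 and 13.5 and 13.8 in clone 8 (0.63, SE 0.17, adjusted p = 0.0341). For Dusp6 the clones had 23.0 and 21.0 against 18.6 and 16.9 CPM, and the difference was not called (-0.32, adjusted p = 0.225).

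**Figure D5:**
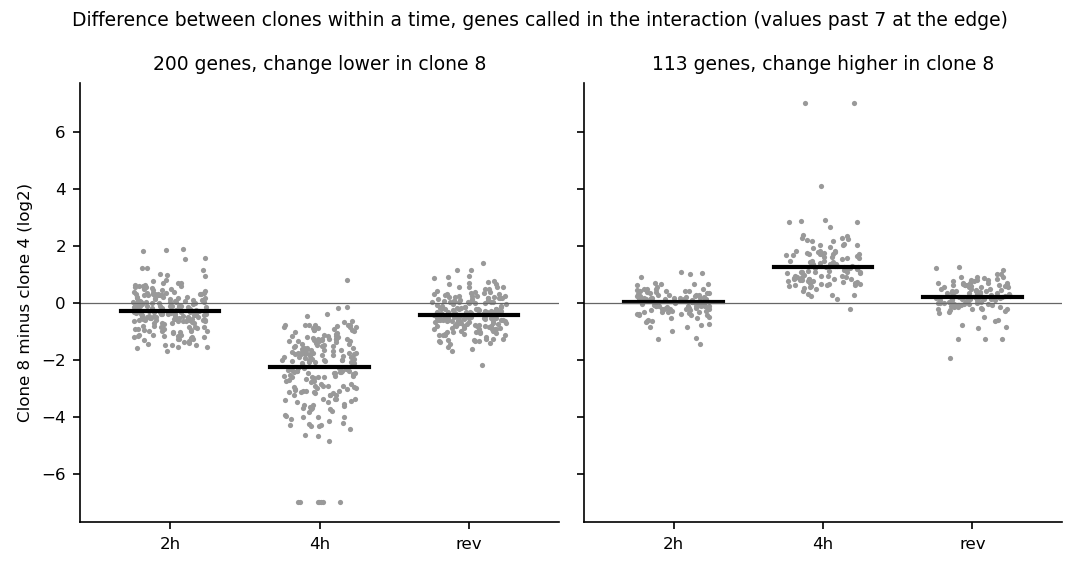
Log2 difference between the clones (clone 8 minus clone 4) at 2h, at 4h and in rev for the 200 genes lower (left) and the 113 genes higher (right) in the interaction, one point a gene, with the median as a bar. The medians are -0.30, -2.24 and -0.43 on the left and 0.01, 1.24 and 0.20 on the right; the 2h and 4h values made the selection, and the rev values did not.

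Of 57 named genes that were checked, 15 share exon positions with another annotated gene in GENCODE M21, among them Jun with Junos, Phlda1 with Gm28592, Nab2 with Stat6, Fosl1 with Ccdc85b and Junb with Prdx2. The handling of strand is not stated, so reads of such pairs may not be told apart.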

How the data were processed

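RNA was made into rRNA-depleted libraries, per the labels' protocols. Per the submitters' processing notes the authors used bcl2fastq 2.19.1, STAR 2.5.3a and mm10. The deposited values are raw counts per gene. The counter, annotation and strand setting are not given in the sources used here. The labels state that 1 library of 0h was discarded in quality control. Genes were filtered with filterByExpr (minimum count 10, total 15), scaled by TMM and fitted in edgeR 4.0.16 (R 4.3.3, quasi-likelihood F test, 8 means of group and clone over 15 libraries, 7 residual degrees of freedom). p-values were Benjamini-Hochberg adjusted over 14999 genes, and intervals are 95%. CPM and fold changes were computed from the counts. Named genes were the called members of 23 lists and the 12 most positive and 12 most negative called interactions with a mean of at least 1 CPM and clones apart at 4h. Uncalled examples (Spry4, Spry2, Spry1, Etv5, Etv4, Fos, Junb, Spred1, Spred2, Spred3 and Esr1) were chosen after their values were seen. The values of 1 called list member are not reported here. The members and lists were chosen with earlier results of these data known. Tested on simulated counts, the interaction fit found 183 of 200 genes changed by 2 on the log2 scale and called 12 unchanged ones. The counts were drawn with the spread that this fit had estimated, and the changed genes had a mean of at least 5 CPM. The share found therefore does not cover lower genes, such as Lgr5 and Ptgs2. Alternatives were DESeq2 1.42.0, limma 3.58.1 voom, other scalings, filters and fits, and leaving out each library. Coordinates are of GENCODE M21 (GRCm38).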

Additional observations from a re-analysis of the deposited data

Results flagged for a closer look

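The changes from 2h to 4h differed between the clones by the interaction test (edgeR, adjusted p under 0.05) for 313 genes, and the named ones are given with their log2 interaction. Among ERK output, feedback, immediate early and Egr corepressor genes it was -2.84 for Egr3, -2.81 for Jun, -2.53 for Phlda1, -2.07 for Dusp5, -1.82 for Myc, -1.56 for Dusp4, -1.48 for Nab1, -1.31 for Klf6, -1.30 for Egr1, -1.26 for Nab2, -1.03 for Dusp6 and 1.01 for Epha2. Among delayed genes it was -2.71 for Fosl2, -2.71 for Hmga2, -2.43 for Vgf, -1.76 for Fosl1 and -1.64 for Rrad. Among pluripotency genes it was 2.23 for Nanog, 2.20 for Esrrb, 1.46 for Fgf4, -1.15 for Klf5 and -2.20 for Cdh2.

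Among the other ranked genes the fitted value was -7.81 for Tmem37, -7.55 for Tex16, -6.91 for Il15ra, -5.77 for Sox9, -5.13 for Zfpm2, -4.24 for Lgr5, -4.24 for Ubash3b, -4.19 for Samd4, -4.0 for Rgs20, -3.85 for Gata2, -3.78 for Ptgs2 and -3.65 for Ppl. On the other side it was 7.70 for Chst3, 4.02 for Hmcn2, 2.69 for Hdac9, 2.69 for Kirrel, 2.65 for Cxcl12, 2.62 for Nfix, 2.38 for Acss1, 2.33 for Dnah8, 2.29 for Slfn9 and 2.20 for Rfx2. Those of genes with at most 3 counts in each library of an arm are not bounds. In the remaining lists it was -2.84 for Krt18, 1.54 for Bbc3, 1.00 for Insig1, 0.75 for Cdk1 and -0.75 for Hmgcs1.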

How the results depend on the processing

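None of the 49 named called genes reversed in any fit, 22 were called in all 8 fits that left out 1 library, and the 4h libraries, the shallowest, limit what can be called. The interaction count of 313 was 182 in the fit of the 8 libraries alone, 118 with total count scaling, 77 after thinning and 120 to 365 with 1 library left out. It was 339 with the replicate number as a block. With a crossed block, which put replicate 2 of clone 4 with replicate 1 of clone 8 and was chosen after seeing the data, it was 370. Numbers were not taken as pairs. The difference of replicate 2 minus replicate 1 correlated little between 2h and 4h (r = 0.0428 in clone 4 and -0.0515 in clone 8). Other groups shared more: r was -0.341 between clone 4 and clone 8 at 2h. Between 2h and rev it was 0.217 in clone 4 and -0.16 in clone 8. The count for clone 4 was 822 with total count scaling and 1385 after thinning, and that for clone 8 was 4621 with total count scaling and 1491 after thinning. The clone difference at 2h gave 411 in the 8 libraries alone, 119 with total count scaling, 171 after thinning and 412 with limma voom. At 4h it gave 385 with total count scaling and 754 after thinning, and in rev 36 and 154, and the 8 libraries alone give no value for rev. With 1 library left out the counts were 1189 to 3489 for the change in clone 4, 1952 to 3746 for the change in clone 8, 488 to 755 for the clone difference at 2h, 647 to 1586 at 4h and 660 to 922 in rev. The ERK output median of -0.25 was -0.78 with total count scaling, -0.36 with a stricter filter (mean of 5 CPM), -0.32 after thinning and -0.17 to -0.32 with 1 library left out. Etv5 and Esr1, neither of them called, changed sign: Etv5 to 0.0695 after thinning and between -0.0661 and 0.0525 with 1 library left out, and Esr1 to 0.43 after thinning and between -0.54 and 0.0528 with 1 library left out. The causes of these moves were not tested.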
